A study of Mus musculus with 81 samples.

Results

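Open chromatin was compared between the 2 middle fractions of reprogramming mouse fibroblasts sorted at 60h by a dye that is diluted as cells divide. The members are the 64930 peaks of the Q2 consensus list and the 73518 peaks of the Q3 consensus list, 138448 in all, taken as deposited. The 25 group lists of the series hold 2226119 peaks, and the series has 81 samples, 3 in each group. Q1 (71163 peaks) and Q4 (57762 peaks), the outer fractions of the same sort, are used only as bounds. Whether Q1 or Q4 kept the most dye is not stated in the labels, so the numbers are given no order of division.

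Mouse embryonic fibroblasts (MEF) with the cell line label Black6-129X1/SvJ were used at passages 2 to 3. All fibroblast groups, controls included, were heterozygous for Col1a1::tetOP-OKSM, R26-M2rtTA and Oct4GFP. These are a doxycycline-driven cassette of the reprogramming factors Oct4, Klf4, Sox2 and Myc in the Col1a1 locus, the transactivator that doxycycline switches on, placed in the Rosa26 locus, and a fluorescent reporter of Oct4. For Q2 and Q3, cells held at 5% oxygen were stained with CellTrace Violet for 20 min and cultured for 60h at atmospheric oxygen with 2 µg/mL doxycycline, LIF and 50 µg/mL ascorbic acid. The 2 bulk lists at 6h come from unsorted cells 6h after induction. One is labelled bulk, and the other mature bulk, with a time of 2 h since the label. The doses of doxycycline and ascorbic acid, and the 5% oxygen before induction, were the same in all fibroblast groups, aphidicolin and untreated included. By the protocols, bulk DNA is what streptavidin left unbound after a pulse of the nucleoside EdU. The lists called 6h, 12h and 36h bulk here were assigned to their groups by elimination, since the labels name only the mature bulk lists. The embryonic stem (ES) cell bulk list at 0h comes from wild-type (WT) 129/Ola ES cells at passages 35 to 45, kept in serum-free N2B27 medium with LIF, a Gsk3 inhibitor and a MEK inhibitor, the latter exchanged for an FGF receptor inhibitor on the day before conversion to epiblast-like cells (EpiLC). In the aphidicolin experiment, reprogramming fibroblasts received 5 µg/mL aphidicolin, an inhibitor of replicative DNA polymerases, 4 h after induction and were harvested 10 h later beside untreated cells. The labels do not say whether the 3 samples of a group came from separate animals or cultures.

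ATAC-seq uses a transposase that inserts into accessible DNA, so peaks mark promoters, enhancers and other sites kept free of nucleosomes. Promoters of broadly used genes are open in most cell types, while enhancers, which mostly lie away from gene ends, differ between cell types. During reprogramming, fibroblast enhancers, many of them bound by AP-1 and other somatic factors, close as the introduced factors open sites used in pluripotent cells. The process is slow and uneven between cells, and it has been linked to how often cells divide, which is the background of a sort by dye dilution.

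Promoters that a peak of 1 of the 2 lists overlaps, with no peak of the other list within 1 kb, serve as examples. They are not typical, since only 8.61% of Q2-only and 6.61% of Q3-only peaks lay within 1 kb of a gene end. The 250 bases before the annotated start are printed 5′ to 3′ on the gene's strand, from RefSeq (GRCm38.p6, which shares coordinates with mm10), and capitals mark the bases under the fraction-only peak. Sertad4 and Glipr1l1 are covered in Q2, and Cdkn1a, Arhgef10l and Trak1 in Q3.
Sertad4: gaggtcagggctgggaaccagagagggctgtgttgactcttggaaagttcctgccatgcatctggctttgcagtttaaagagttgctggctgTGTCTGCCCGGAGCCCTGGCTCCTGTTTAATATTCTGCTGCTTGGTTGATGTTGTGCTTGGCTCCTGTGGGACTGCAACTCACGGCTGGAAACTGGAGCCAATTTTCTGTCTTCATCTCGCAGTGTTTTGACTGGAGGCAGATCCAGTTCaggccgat
Glipr1l1: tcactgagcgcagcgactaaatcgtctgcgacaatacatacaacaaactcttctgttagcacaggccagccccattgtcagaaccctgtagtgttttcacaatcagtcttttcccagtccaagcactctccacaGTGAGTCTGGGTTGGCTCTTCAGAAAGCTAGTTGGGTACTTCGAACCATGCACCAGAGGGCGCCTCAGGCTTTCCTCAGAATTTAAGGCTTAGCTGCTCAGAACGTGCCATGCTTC
Cdkn1a: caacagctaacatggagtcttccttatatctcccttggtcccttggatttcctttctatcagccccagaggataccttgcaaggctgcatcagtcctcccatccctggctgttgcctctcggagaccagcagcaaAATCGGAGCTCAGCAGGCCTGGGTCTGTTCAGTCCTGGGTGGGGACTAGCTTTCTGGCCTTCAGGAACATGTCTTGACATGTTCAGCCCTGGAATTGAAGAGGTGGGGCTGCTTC
Arhgef10l: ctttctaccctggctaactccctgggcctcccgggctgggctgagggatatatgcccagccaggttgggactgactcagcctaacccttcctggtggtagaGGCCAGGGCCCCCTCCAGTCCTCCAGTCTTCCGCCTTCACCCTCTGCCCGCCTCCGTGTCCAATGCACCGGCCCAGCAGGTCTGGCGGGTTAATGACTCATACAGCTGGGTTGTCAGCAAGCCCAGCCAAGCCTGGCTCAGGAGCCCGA
Trak1: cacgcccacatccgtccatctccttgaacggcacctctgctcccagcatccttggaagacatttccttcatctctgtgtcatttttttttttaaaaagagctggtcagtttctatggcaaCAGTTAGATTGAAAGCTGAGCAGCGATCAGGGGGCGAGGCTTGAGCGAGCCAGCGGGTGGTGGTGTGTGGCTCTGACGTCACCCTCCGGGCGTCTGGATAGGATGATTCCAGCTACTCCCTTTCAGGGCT

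The Sertad4 stretch is chr1:192851748-192851997, minus strand, with 150 bases under a Q2 peak of score 339. The peak caller's score is the authors' and ranks peaks within 1 list. Its median was 156 for Q2-only and 145 for Q3-only peaks, below the scores of the peaks printed here. The Glipr1l1 stretch (chr10:112059939-112060188, plus strand) has 116 bases under a Q2 peak of score 455. Cdkn1a, which encodes the cyclin-dependent kinase inhibitor p21, has 115 bases of chr17:29090729-29090978 (plus strand) under a Q3 peak of score 259. For Arhgef10l, a guanine nucleotide exchange factor gene, 149 bases of chr4:140665888-140666137 (minus strand) lie under a Q3 peak of score 543. For Trak1, an adaptor of mitochondrial transport, 130 bases of chr9:121403196-121403445 (plus strand) lie under a Q3 peak of score 372. Among these 5 stretches only that of Arhgef10l holds the AP-1 motif TGANTCA on either strand.

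The lists were checked against markers of the labelled cells. Of 24 fibroblast identity genes, 20 had a peak within 1 kb of an end of the gene model in both Q2 and Q3, among them Col1a1, Col3a1 and Thy1. Fap, Lum and Pdgfra had one in neither list, and Postn in Q3 only. Among all 21883 protein-coding genes, 59.9% had one in both lists and 38.0% in neither, and the marker counts are read beside these shares. Of 16 mesenchymal transcription factor genes, 13 had one in both lists, and Runx1, Tbx5 and Tcf21 had one in neither. Snai2 was among the 13, with 1 gene-end peak in each of Q1 to Q4. Of 22 core and naive pluripotency genes, 9 had a gene-end peak in both lists and 13 in neither, Nanog and Esrrb among the latter. Of 17 epithelial genes, 7 had one in both lists (Cldn3, Dsp, Epcam, Grhl2, Krt19, Rab25 and Tjp1), 8 in neither, Cdh1 and Krt18 among them, and Cldn7 and Esrp1 in 1 list. Macrophage and blood markers had one in both lists at 3 of 10 genes, endothelial markers at 4 of 10, and muscle and neural markers at 4 of 12. A gene-end peak shows an open site, not a transcribed gene, and the makeup of the sorted cells was not tested.

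Most Q2 peaks lay inside the Q3 list, while the converse held less fully. Of the Q2 peaks, 61156 overlapped a Q3 peak by at least 1 bp (94.2%, Wilson 95% interval 94.0 to 94.4), leaving 3774 Q2-only peaks (5.81%). Of the Q3 peaks, 60710 overlapped a Q2 peak (82.6%, 82.3 to 82.9), leaving 12808 Q3-only peaks (17.4%). All such intervals cover counting error only, because there is 1 list per fraction and no spread between replicates. With the Q3 list cut by score to the 64930 peaks of Q2, the lists shared 88.0% of Q2 and 87.2% of Q3. Lists of 1 length give nearly equal shares by construction, so this says nothing of why the deposited shares differ.

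Q2 and Q3 were also the closest pair from the side of Q2. The Q2 list shared 93.2% of its peaks with Q1 and 74.1% with Q4. The Q3 list shared 86.4% with Q1 and 69.8% with Q4. As bounds, Q1 and Q4, the outer pair, shared 69.5% of Q1 and 88.1% of Q4. These shares move with list length, and Q4 was the shortest list.

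Fraction-only peaks were the weak and narrow end of each list. The median score was 620 for Q2 peaks shared with Q3 and 156 for Q2-only peaks. In the Q3 list the medians were 471 and 145. Median widths were 318 bp for shared and 149 bp for Q2-only peaks, and 357 and 160 bp in Q3. The other list had a peak within 1 kb, without overlap, for 15.8% of Q2-only and 15.3% of Q3-only peaks. Pieces of a peak whose other piece was shared made up 184 Q2-only and 364 Q3-only peaks.

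Gene-end peaks were mostly shared. A peak within 1 kb of an end of a protein-coding gene model was found for 22.4% of Q2 peaks shared with Q3 (22.1 to 22.8), 8.61% of Q2-only peaks (7.76 to 9.55) and 6.61% of Q3-only peaks (6.19 to 7.05). The difference between the fraction-only classes was 2.01 percentage points (1.04 to 3.03), and 4.80 points with lists of equal length. The median distance to a gene end was 13301 bp for shared Q2 peaks, 21231 bp for Q2-only and 25539 bp for Q3-only peaks. A gene end itself was covered by 9323 shared Q2 peaks (15.2%), 53 Q2-only peaks and 118 Q3-only peaks.

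Q2-only peaks were found in ES cells more often than Q3-only peaks, and in fibroblasts at 6h less often. The ES cell bulk list held 60.2% of shared Q2 peaks, 43.6% of Q2-only peaks (42.0 to 45.1) and 34.0% of Q3-only peaks (33.2 to 34.8). The difference between the fraction-only classes was 9.57 percentage points (7.80 to 11.36). At least one 6h bulk list held 94.7% of shared Q2 peaks, 76.0% of Q2-only peaks (74.6 to 77.3) and 84.7% of Q3-only peaks (84.1 to 85.3), a difference of -8.75 points (-10.26 to -7.27). Both differences kept their direction with lists of equal length, at 16.13 and -15.49 points. When at least 50% of each peak had to be covered, the 6h difference shrank to -1.95 points.

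**Figure D1:**
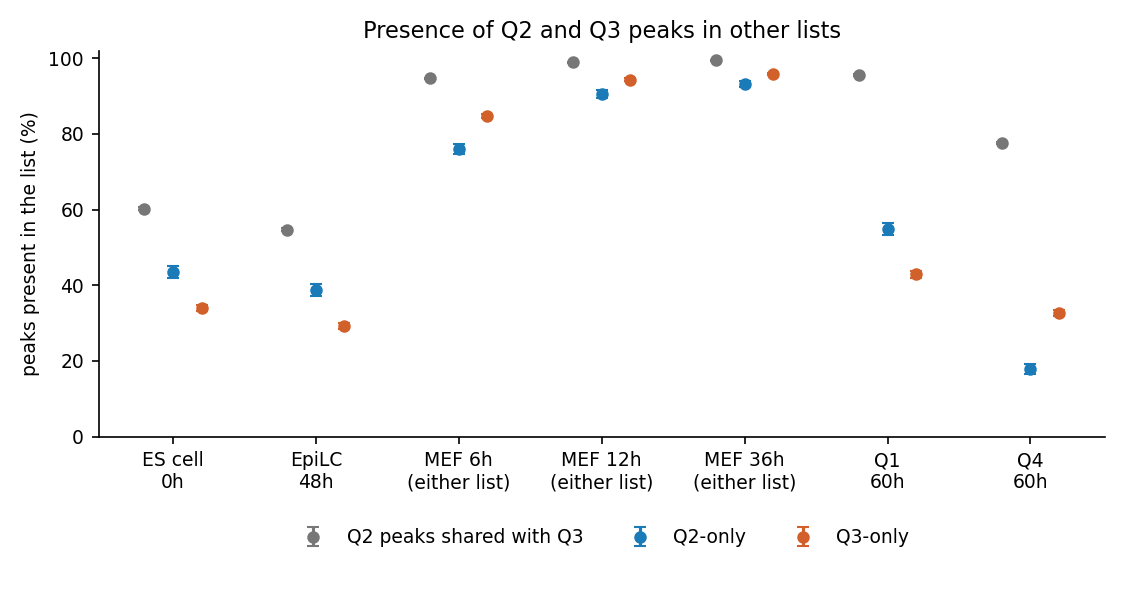
Share of peaks (%, y axis) present in each list on the x axis, for Q2 peaks shared with Q3, Q2-only and Q3-only peaks. Points are shares and bars are Wilson 95% intervals (counting error only). Q2-only peaks lie above Q3-only peaks in the ES cell list (43.6% against 34.0%) and Q1, and below them at 6h (76.0% against 84.7%) and in Q4.

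Each 6h list gave the same order. The 6h bulk list held 67.9% of Q2-only and 76.1% of Q3-only peaks, and the 6h mature bulk list 75.1% and 84.1%. The gap was smaller at later times, with 90.6% and 94.3% in a 12h list and 93.2% and 95.8% in a 36h list. The EpiLC bulk list at 48h held 38.8% of Q2-only and 29.3% of Q3-only peaks. Peaks in no earlier fibroblast bulk list (6h, 12h or 36h) numbered 131 in Q2-only (3.47%) and 258 in Q3-only (2.01%), so nearly all fraction-only peaks had been called earlier in the unsorted course.

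The ES cell list and the 6h lists were also read together. Among peaks in a 6h list, the ES cell list held 43.4% of Q2-only and 33.7% of Q3-only peaks. These shares are close to the 43.6% and 34.0% of the whole classes, so the 6h lists added little to that difference. Peaks in the ES cell list and in no 6h list made up 10.6% of Q2-only peaks (9.63 to 11.6), 5.47% of Q3-only peaks (5.09 to 5.88) and 2.21% of shared Q2 peaks. Peaks in a 6h list and not in the ES cell list made up 43.0% of Q2-only peaks and 56.2% of Q3-only peaks. Peaks in neither source made up 13.5% and 9.81%.

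The order held within bands of the peak's own score. In the band from 30 to under 100, the ES cell list held 47.6% of Q2-only and 37.7% of Q3-only peaks. In the band of 500 and over, it held 26.3% (21.7 to 31.5) and 16.6% (14.5 to 19.1). A 6h list held 63.1% and 72.5% in the lowest band and 96.1% (93.3 to 97.8) and 98.6% (97.6 to 99.2) in the highest. Scores of the 2 lists come from different libraries, so a band does not mark the same strength in both.

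**Figure D2:**
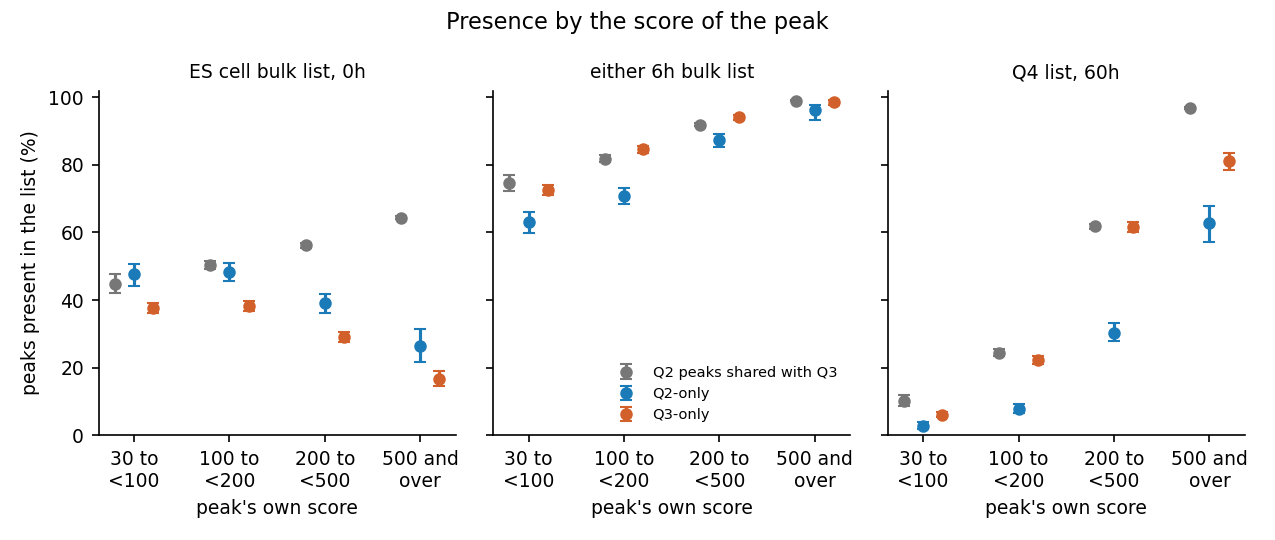
Share of peaks (%, y axis) present in the ES cell bulk list, a 6h bulk list or the Q4 list, by band of the peak's own score (x axis). Points are shares and bars are Wilson 95% intervals. Q2-only points lie above Q3-only points in every band for ES cells (47.6% against 37.7% in the lowest) and below them in every band for 6h and Q4.

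The same order was seen at and away from gene ends. Of gene-end peaks, the ES cell list held 75.1% of the 325 Q2-only peaks (70.1 to 79.5) and 61.7% of the 846 Q3-only peaks (58.4 to 64.9). Away from gene ends the shares were 40.6% and 32.0%. A 6h list held 88.6% (84.7 to 91.6) and 89.1% (86.8 to 91.0) of the gene-end peaks, intervals that overlap, and 74.8% and 84.4% of the others.

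The outer fractions bounded the classes in opposite ways. Q1 held 54.9% of Q2-only and 42.9% of Q3-only peaks, while Q4 held 17.8% and 32.6%. Peaks that Q1 held and Q4 did not made up 45.1% of Q2-only and 27.6% of Q3-only peaks. Those that Q4 held and Q1 did not made up 8.06% and 17.3%. The rest were in both outer lists (9.75% and 15.3%) or in neither (37.1% and 39.9%).

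Presence in ES cells differed between these groups, and was lower among peaks that Q4 held. Of Q2-only peaks, the ES cell list held 50.7% of those in Q1 and not Q4, and 23.0% of those in Q4 and not Q1. For Q3-only peaks the shares were 47.9% and 14.3%. Among peaks in neither outer list the shares were 43.4% for Q2-only and 34.3% for Q3-only peaks. Among peaks in both, the shares were 28.3% and 30.3%, so the order of Q2-only and Q3-only peaks turned there.

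Most genes had a gene-end peak in both lists or in neither. Of 21883 protein-coding genes, 13101 had one in both, 8318 in neither, 148 in Q2 only (0.676% of all genes) and 316 in Q3 only (1.44%). With lists of equal length the order turned, with 471 genes in Q2 only and 189 in Q3 only, so no direction is read from these 2 counts. In 10 of the 148 and 31 of the 316 genes the deciding peak was also in the other list, just beyond the 1 kb window. The remaining 138 genes had a median score of 112 in Q2, and the remaining 285 genes one of 123 in Q3. The ES cell list had a gene-end peak at 86.5% of the 148 and 80.7% of the 316 genes, and a 6h list at 95.3% and 93.0%.

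The 10 genes of the highest score in Q2 only included several at the window's edge. Kdm6a, a histone demethylase gene, had a Q2 peak of score 2858 that started 960 bp from the gene's end (chromosome X, 18161822 to 18162823), and Q3 held the same peak beyond the window. Cdc42bpb (2608), Cnr1 (1512), Hsd17b1 (1447) and Usp13 (1395) were of the same kind. Peaks that Q3 lacked lay at Ildr1 (score 1065, chromosome 16, 36694879 to 36695233), which encodes a receptor of tricellular junctions, and at Map6 (918), a microtubule-associated protein gene. Zfp729b (668), Glipr1l1 (455) and Abca9 (431), an ABC transporter gene, complete the 10.

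In Q3 only, Ruvbl2 (2022), a subunit gene of chromatin remodelling complexes, Exoc3 (1650), Plppr2 (1634), Gdpd3 (1529), Psmb10 (961), Mab21l4 (902) and Lratd2 (843) owed their place to the window's edge. Peaks that Q2 lacked lay at Slc7a12 (score 1638, chromosome 3, 14505979 to 14506169), Slc6a15 (1340, chromosome 10, 103367960 to 103368228) and Baalc (900). The first and second are genes of solute carriers. Slc6a15 had 3 gene-end peaks in Q3, 2 in Q1, 1 in Q4 and none in Q2.

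Among the gene lists, 12 genes had a gene-end peak in 1 fraction only. In Q2 these were Cldn7, a tight junction gene (score 70), Cdk6, a G1 kinase gene (152), Igfbp3 (188), Actb (64) and Sox18, an endothelial transcription factor gene (169). In Q3 they included Postn, which encodes the matrix protein periostin (669), Esrp1, an epithelial splicing regulator gene (573), Ccnd3 (148), Cdkn1a (259), Igfbp5 (115) and Col2a1 (157). The Cdk6 and Esrp1 peaks were also in the other list, 996 and 974 bp from the gene's end in the list that counted. Of 331 list genes, 5 were in Q2 only and 7 in Q3 only, beside 148 (0.676%) and 316 (1.44%) of all 21883 genes. No list held more than 1 gene in either direction.

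At Cdkn1a the difference lay at the annotated start of the gene model, while Q1 to Q4 all had peaks inside the gene. The Q3 peak (chromosome 17, 29090864 to 29091021, score 259) covered the start, and another Q3 peak of score 67 lay at the gene's other end. Q4 had a peak of score 117 over the same start, and the ES cell bulk list one of score 368. No peak of Q1, Q2 or either 6h bulk list lay there. The 36h bulk list had one of score 249, and the 36h mature bulk list and both 12h bulk lists had none. A peak inside the gene at 29093479 to 29093841 in Q2 (score 921) had counterparts in Q1, Q3 and Q4 (scores 729, 788 and 290). The 6h bulk, 6h mature bulk and ES cell bulk lists held it as well (2069, 3662 and 3541). Another at 29095430 to 29095710 in Q2 (score 1504) had a counterpart in Q1, Q3 and Q4 (scores 1310, 1125 and 292). Which start of the gene the cells use was not tested.

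At Postn the Q3 peak lay 534 bp from the gene's end (chromosome 3, 54358582 to 54358732). Q4 also had a gene-end peak there, and Q1 and Q2 had none. Each 6h bulk list had 2 and the ES cell list none. The locus, taken as the gene with 10 kb on each side, held 1, 0, 2 and 1 peaks in Q1 to Q4.

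Promoters were searched for motifs. Of 32851 RefSeq promoter windows of 300 bases (250 before and 50 after the start), 13474 overlapped a peak of both lists, 212 of Q2 only (0.645%) and 420 of Q3 only (1.28%). The AP-1 motif TGANTCA, searched on both strands, was in 8.96% of Q2-only promoters (5.81 to 13.6), 14.3% of Q3-only promoters (11.3 to 18.0), 4.81% of promoters in both lists and 7.81% of all promoters. The intervals of the Q2-only and Q3-only promoters overlap, and the difference was not tested. The ETS motif CCGGAAG was in 4.25% of Q2-only and 4.29% of Q3-only promoters, against 17.8% of promoters in both lists and 8.86% of all. The median GC content was 60.5% in Q2-only and 54.7% in Q3-only promoters, against 62.3% in promoters of both lists and 52.7% in all. A match describes the sequence and is no bound site.

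MicroRNA hairpins gave a small set. Of 1005 hairpins, 171 had a peak within 1 kb in both lists, 9 in Q2 only (0.896%) and 31 in Q3 only (3.08%). Hairpins near 1 peak were each counted, as Mir432, Mir3071 and Mir136 in Q2 and Mir3093, Mir9-1 and Gm25641 in Q3. The counts are of the deposited lists, which differ in length. At Mir6992, Mir1966 and Mir1967 the Q2 list also held the Q3 peak, beyond the 1 kb window. The Mir302 and Mir367 cluster, whose microRNAs are abundant in pluripotent cells and can promote reprogramming, was among the Q3-only hairpins and was chosen after its values were seen. The cluster holds 5 hairpins, all counted on 1 Q3 peak: Mir302b, Mir302c, Mir302a, Mir302d and Mir367. The mature 3p sequences of 4 of them, from RefSeq, are shown with the seed (bases 2 to 8) in capitals, and those of miR-302b-3p and miR-302d-3p are the same.
miR-302b-3p: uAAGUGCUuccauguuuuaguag
miR-302c-3p: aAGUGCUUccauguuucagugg
miR-302d-3p: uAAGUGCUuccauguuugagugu
miR-367-3p: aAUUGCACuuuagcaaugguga

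The Q3 peak near the cluster (chromosome 3, 127544775 to 127544955) had a score of 88, was 181 bp wide and started at -453 bp relative to the first hairpin. No peak of Q1, Q2, Q4 or the 6h bulk list lay there. The 6h mature bulk list had one of score 94, the 12h bulk list 137 and the 36h bulk list 992. The ES cell bulk list had one of score 4804 and the EpiLC bulk list 1198. In all, 15 of 25 lists had a peak there. With lists of equal length, a Q3 peak of score 103 at Epcam was cut, and the cluster's Q3 peak of score 88 lies below it. The difference from Q2 at the cluster therefore depends on list length.

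Peak numbers per locus were higher in Q3 at more genes than in Q2. Q3 had more peaks at 5522 loci (25.2%), Q2 at 1736 (7.93%), and 14625 were equal. With lists of equal length the order turned to 3257 and 3812 loci. The summed ratio over all genes was 1.10 Q3 peaks per Q2 peak, and lists are read against it.

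Core and naive pluripotency genes had the reverse of the order of all genes in the deposited lists. Q2 had more peaks at 7 of the 22 loci (Dppa3, Esrrb, Fbxo15, Klf2, Pou5f1, Sox2 and Utf1), each by 1 peak, and Q3 at 1 (Klf4). The 22 loci held 54, 55, 49 and 31 peaks in Q1 to Q4. At Pou5f1, which encodes Oct4, the numbers were 3, 3, 2 and 2, and at Esrrb, a naive pluripotency factor gene, 4, 5, 4 and 2. Nanog had 2, 2, 2 and 1. The count was 10 against 1 with lists of equal length, where all genes also had more loci higher in Q2 (3812 against 3257), and 4 against 0 when pieces of 1 peak were joined, but with 50 kb on each side it turned to 4 against 8. Reads at Pou5f1, Sox2, Klf4 and Myc can also come from the inducible cassette.

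In 4 lists Q3 had more peaks at some loci and Q2 at none: AP-1 and immediate early genes, G1/S genes, genes of G2 and mitosis, and macrophage and blood markers (4 of 10, and 3 against 0 with lists of equal length). AP-1 factors are induced by growth signals and bind many fibroblast enhancers. In this list Q3 had more peaks at 8 of 16 loci: Atf3, Batf, Dusp1, Egr1, Egr2, Fos, Fosb and Fosl2. Fosl2 had 4, 3, 5 and 4 peaks in Q1 to Q4. With lists of equal length Q3 had more at 7 and Q2 at 1. For G1/S cyclins and E2F genes it was 10 of 18, among them Ccnd2, Ccnd3, Cdk6 and E2f2 (2 peaks more each). With lists of equal length it was 7 against 5. Ccnd2 then turned to 6 peaks in Q2 and 5 in Q3. Ccnd3 had 6 and 7, Cdk6 13 and 14, and E2f2 6 and 8. For G2 and mitosis genes Q3 had more peaks at 6 of 24 loci, close to the share of all genes. With lists of equal length that count was 5 against 2.

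Fibroblast, mesenchymal and TGF-beta genes had more Q3 than Q2 peaks at 10 of 24, 7 of 16 and 9 of 16 loci, against 2, 1 and 2 with more in Q2. Zeb2, which encodes a repressor of epithelial genes, had 9, 5, 11 and 7 peaks in Q1 to Q4. Runx2 had 20, 17, 22 and 15, and Tgfbr2, a TGF-beta receptor gene, 4, 4, 7 and 4. With lists of equal length the counts were 7 against 4, 4 against 4 and 7 against 7, beside 3257 against 3812 for all genes. Replication licensing and S phase genes, which are open in dividing cells, had 3 loci with more in Q3 and 4 with more in Q2, and glycolysis genes 3 and 3. The lists of other cell types had 0 to 2 loci with more in Q2 and 2 to 5 with more in Q3.

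**Figure D3:**
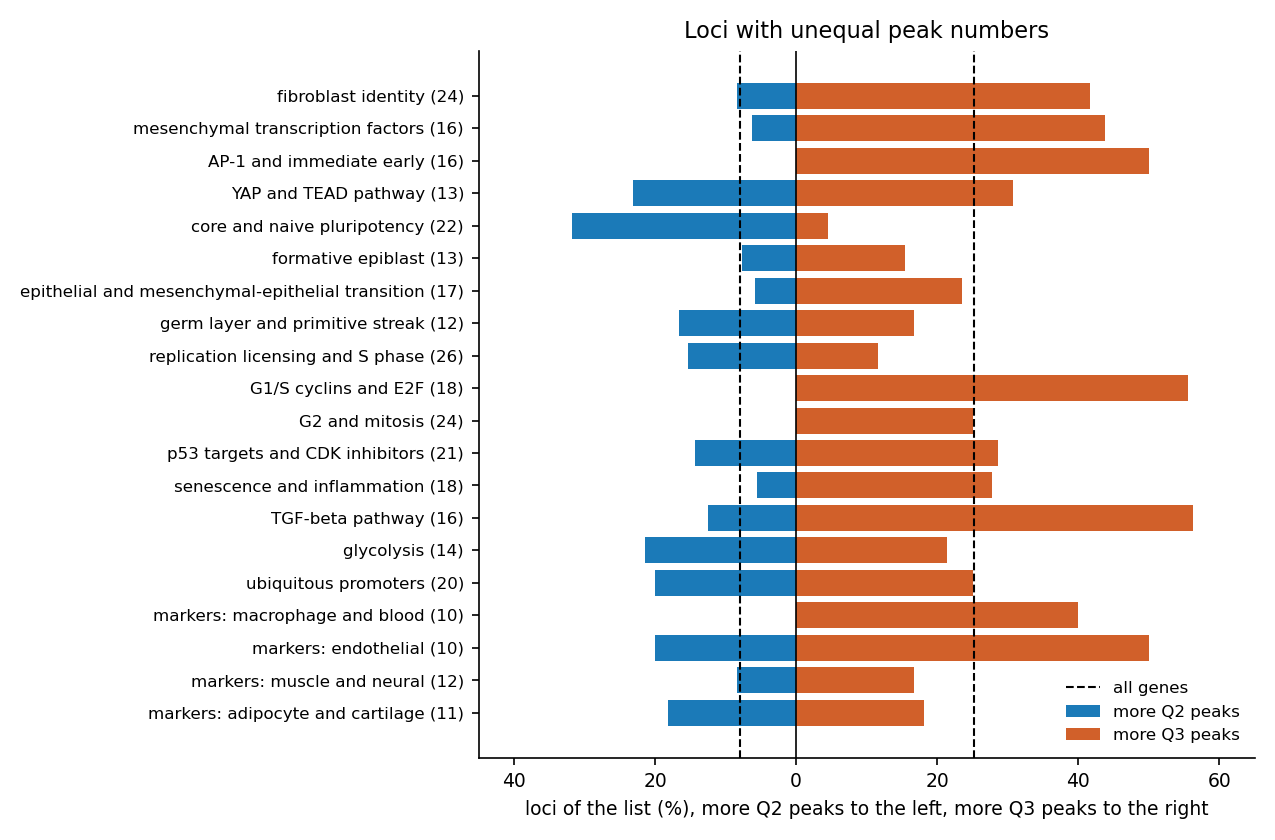
Share of the loci of each gene list (number of genes in brackets) with more Q2 peaks (bars to the left) or more Q3 peaks (bars to the right), in percent. Dashed lines are the shares of all genes, 7.93% and 25.2%. Core and naive pluripotency loci reach furthest to the left, with 7 of 22.

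Single loci differed by up to 12 peaks. Q3 had 12 more peaks at Foxp1, a forkhead repressor gene (47, 38, 50 and 35 in Q1 to Q4), and 10 more at Pde4d, a cAMP phosphodiesterase gene (51, 44, 54 and 47). Camta1, Ptprm, Rora and Ext1 had 9 more, and Zbtb20, Dlc1, Cacna2d3 and Dock9 had 8 more. In the other direction Bmpr1b, a BMP receptor gene (8, 10, 6 and 6), Lasp1 (8, 8, 4 and 5) and Psd (5, 8, 4 and 5) had 4 more in Q2. Cacna1c, Fras1, Trim2, Cmip, Plxna2, Ubtd1 and Zfp385c had 3 more. With lists of equal length Foxp1 went to 38 and 39 peaks, Pde4d to 44 and 51, and Bmpr1b stayed at 10 and 6.

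Of the set of 20 genes read in every case, 11 had equal numbers in Q2 and Q3, and the other 9 were Pou5f1, Sox2, Klf4, Esrrb, Col1a1, Thy1, Cdh1, Cdkn1a and Cdkn2a. Among all genes, 14625 of 21883 were equal. Mki67, a proliferation marker gene, had 3 locus peaks in each of Q1 to Q3 and 5 in Q4, and Mcm2, a subunit gene of the replicative helicase, 4, 4, 4 and 3. Ccnd1 had 5, 5, 5 and 4, Jun 3, 2, 2 and 2, and Fosl1 4 in each. Cdkn2a, which encodes the inhibitors p16 and p19 and is known as a barrier to reprogramming, had 6, 5, 6 and 3. Myc had 4, 5, 5 and 5, Epcam 1, 1, 1 and 0, and Cdh1 10, 8, 9 and 7.

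The aphidicolin counts gave a replicated readout that the sorted lists did not use, in cells 14h after induction. Regions that overlapped only shared peaks numbered 56746 of the 138996 tested, those with only Q2-only peaks 2379, and those with only Q3-only peaks 9140. By edgeR's quasi-likelihood test (adjusted p under 0.05, 3 libraries per group), Q3-only regions were higher with aphidicolin at 1711 (18.7%, 17.9 to 19.5), against 18.0% of all regions, and Q2-only regions at 315 (13.2%, 11.9 to 14.7). Lower regions were 925 of the Q3-only (10.1%) and 259 of the Q2-only (10.9%, 9.70 to 12.2), against 17.9% of all regions. Of shared regions, 4297 were higher (7.57%) and 18441 lower (32.5%). The difference in response between the classes was not tested, and regions are not replicates.

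Median log2 CPM of the Q2-only regions was 1.58, 1.53 and 1.54 in the untreated libraries and 1.58, 1.60 and 1.61 with aphidicolin. For Q3-only regions it was 1.77, 1.76 and 1.79, then 1.84, 1.88 and 1.87. For shared regions it was 3.06, 3.05 and 3.05, then 2.97, 2.97 and 2.98. The Q2-only medians touched at the lowest treated library, while those of Q3-only and shared regions did not overlap between groups. The median log2 fold changes were 0.02, 0.07 and -0.15, against 0.02 over all regions. With library totals in place of TMM scaling, 634 of the 2379 Q2-only regions were higher and 89 lower. Of the 9140 Q3-only regions 3103 were higher and 314 lower, and of the 56746 shared regions 9298 and 8556. Over all 138996 regions the counts were 42149 higher and 11101 lower. The median log2 fold changes were then 0.18, 0.23 and 0.01 in the same order, and that of all regions moved from 0.02 to 0.18. Relative to all regions, the Q2-only median was equal, the Q3-only median higher and the shared median lower under both scalings.

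Region strength moved with the calls, so the classes were read within 4 bands of mean log2 CPM that hold 34749 regions each. In the lowest band 14.7% of Q2-only (12.1 to 17.7) and 21.5% of Q3-only regions (19.6 to 23.6) were higher. In the band above it the shares were 14.0% and 19.8%, and in the next 14.0% and 20.1%. In the highest they were 3.30% (1.61 to 6.66) and 10.6% (9.16 to 12.3). Of all regions 28.1%, 22.0%, 17.9% and 4.09% were higher, from the lowest to the highest band. Of shared regions it was 17.6%, 13.7%, 11.4% and 2.54%. Q2-only shares were thus below those of all regions in each band, within the interval in the highest. Q3-only shares were below in the lowest and second bands and above in the third and highest. Lower regions made up 27.8% of Q2-only (22.2 to 34.2) and 23.1% of Q3-only regions (21.1 to 25.3) in the highest band, intervals that overlap. Of all regions in that band 47.2% were lower. Without aphidicolin library b the higher regions numbered 173 in Q2-only and 970 in Q3-only, and without aphidicolin library c 188 and 1024. Without untreated library b the Q2-only regions numbered 209 higher and 166 lower, and the lower Q3-only regions 581. Counts over all regions were not drawn up for these settings, so these counts have no background share beside them.

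**Figure D4:**
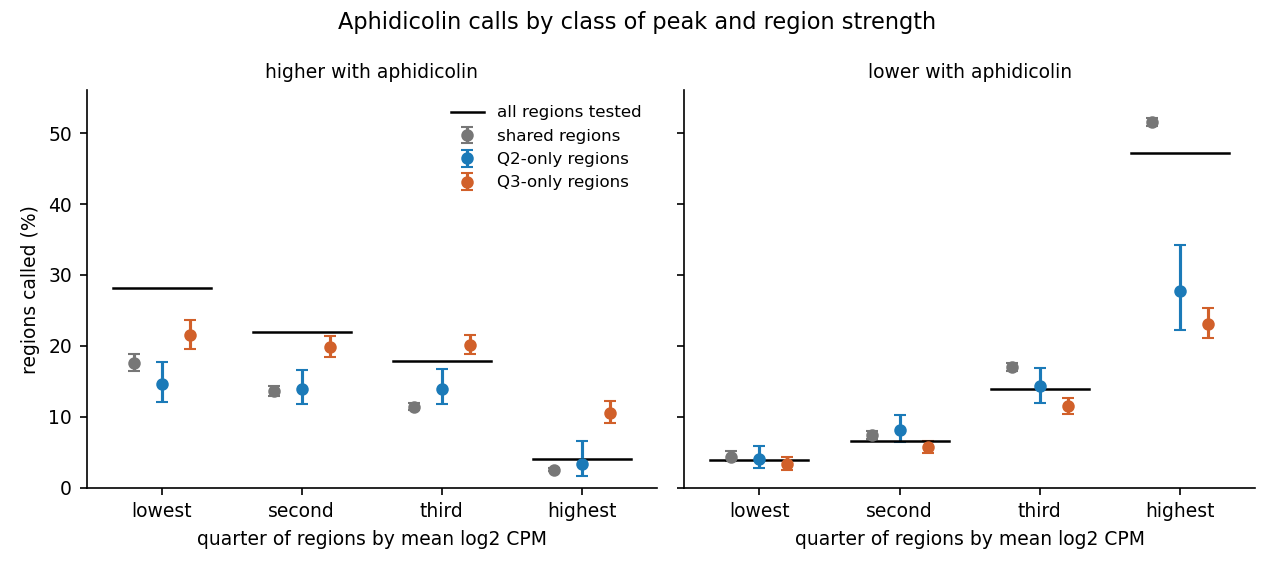
Share of regions (%, y axis) called higher (left) or lower (right) with aphidicolin, by band of mean log2 CPM (x axis, 4 bands of equal size). Points are classes with Wilson 95% intervals (counting error only), and black lines are all regions tested. Q3-only points lie above Q2-only points for higher regions in each band (21.5% against 14.7% in the lowest, beside 28.1% of all regions).

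Single regions under named fraction-only peaks varied. Under the Q2-only peak beside Actb, the count region (chromosome 5, 142902029 to 142902752) measured 4.72, 4.85 and 5.03 log2 CPM untreated and 3.01, 3.20 and 3.34 with aphidicolin, with no overlap. Its log2 fold change was -1.68 (edgeR adjusted p = 2.5e-07). The region lies outside the gene model (142903115 to 142907976), and whether its reads are shared with actin copies was not tested. Another Q2-only peak lay 5823 bp from Timp2, an inhibitor gene of matrix proteases. The count region under that peak measured 4.95, 4.82 and 4.83 untreated and 4.36, 4.24 and 4.33 with aphidicolin (log2 fold change -0.56, edgeR adjusted p = 0.00015). The Sox18 region measured 1.86, 2.09 and 1.76, then 2.27, 2.25 and 2.15 (0.31, adjusted p = 0.045). Among Q3-only peaks, the Postn region measured 3.04, 2.89 and 2.71, then 2.84, 2.83 and 2.89, values that overlap (-0.04, adjusted p = 0.80).

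The library lists of that experiment held Q3-only peaks more often than Q2-only peaks in each of 6 libraries. Untreated libraries held 62.6%, 63.0% and 58.9% of Q2-only peaks and 68.5%, 68.9% and 66.3% of Q3-only peaks. Aphidicolin libraries held 70.0%, 77.2% and 74.6% of Q2-only and 76.9%, 83.2% and 81.3% of Q3-only peaks. Groups did not overlap in either class, with means of 61.5% ± 2.25 and 74.0% ± 3.68 (SD, n = 3) for Q2-only and 67.9% ± 1.41 and 80.5% ± 3.23 for Q3-only. The exact two-sided permutation p was 0.100 for each class, the smallest that 3 against 3 allows. The aphidicolin lists were also longer, with 148292 to 163947 peaks against 116939 to 129546.

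The gap between Q2-only and Q3-only peaks did not differ beyond the spread between libraries. It was -6.51 ± 0.52 points with aphidicolin and -6.39 ± 0.85 points untreated (SD, n = 3, exact two-sided permutation p = 0.900). Shared Q2 peaks were held 4.21 points more often with aphidicolin than untreated.

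**Figure D5:**
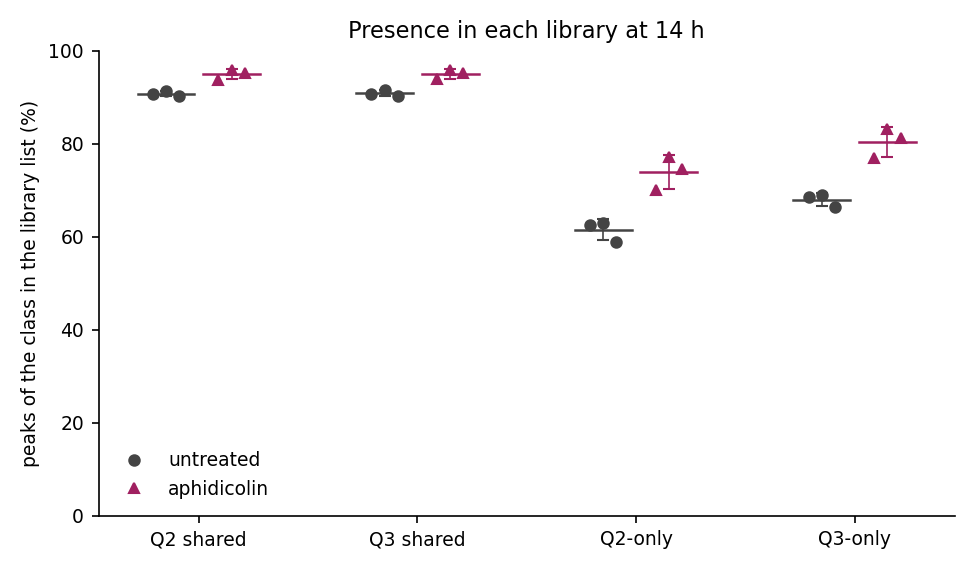
Share of each class of peak (%, y axis) present in the peak list of each library at 14h, untreated (circles) or with aphidicolin (triangles). Horizontal lines are means and bars SD of 3 libraries. Q3-only peaks lie above Q2-only peaks in both groups (67.9% against 61.5% untreated).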

How the data were processed

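ATAC-seq peak lists of sorted fractions, of bulk cells and of single libraries were used as the authors deposited them, on mm10. The submitters' processing notes name MACS2 2.2.0 and bedtools 2.26.0, besides Bowtie2 2.2.5, cutadapt 2.2.0, SAMtools 1.4.1 and bcl2fastq 2.19.1. The peak score in each deposited list is the authors' and ranks peaks within that list. No source used here gives how the 3 samples of a fraction were combined, and depth is unknown for the lists. The deposited counts per region (139000 regions, 6 libraries) were tested with edgeR 4.0.16 (quasi-likelihood, TMM, filterByExpr, Benjamini-Hochberg, R 4.3.3), checked on simulated data. DESeq2 1.42.0 was an alternative. Peaks were shared at 1 bp of overlap, gene ends reached 1 kb, and loci 10 kb on each side. Named genes were the 10 of highest score in 1 list only, list members in 1 list only, the loci of largest difference and a set of 20. Members and lists were chosen with earlier results of these data known. Whether samples were separate cultures is not stated, so p-values measure the spread between these samples. One list member is not reported here.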

Additional observations from a re-analysis of the deposited data

How the results depend on the processing

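Fractions have 1 list each, so no value between Q2 and Q3 has a replicate error. Shares of Q2 and Q3 peaks held by the other list were 88.7% and 78.4% when 50% of each peak had to be covered, 93.9% and 83.0% at scores of at least 50, 91.8% and 85.7% at scores of at least 100, 88.0% and 87.2% at equal list length, and 95.1% and 85.2% when a peak within 1 kb counted. Added after seeing the data, joining rows of 1 peak name gave 82.9% for Q3, and a width of at least 100 bp gave 94.4% for Q2. The gene-end difference was 4.34, 3.64 and 4.80 points with 50% overlap, scores of at least 100 and equal length, and 3.21 points with ends reaching 5 kb. The ES cell difference was 14.28 and 16.13 points with scores of at least 100 and equal length, and the 6h difference -11.34 and -15.49, or -1.95 with 50% overlap. Q2-only genes numbered 258 (249 on a peak Q3 lacks) at scores of at least 100. At equal length they numbered 471 (462) and Q3-only genes 189 (162), with 3812 loci higher in Q2 and 3257 in Q3. With 50 kb on each side Q3 had more at 9508 loci. Library totals gave 9298 higher and 8556 lower shared regions, 634 and 89 Q2-only, and 3103 and 314 Q3-only, beside 42149 and 11101 of all 138996. They turned the shared median log2 fold change to 0.01. The cause was not tested.

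Leaving out 1 library gave lowest counts of 2282 higher and 11507 lower shared, 173 and 138 Q2-only, and 970 and 500 Q3-only regions, and highest counts of 5947 and 20873, 385 and 300, and 2160 and 1071. Library list differences ranged from 10.79 to 14.42 points for Q2-only, 11.21 to 14.35 for Q3-only, 3.76 to 4.81 for shared Q2 and 3.72 to 4.75 for shared Q3 peaks. Same-lettered aphidicolin and untreated libraries deviated together with correlations of 0.263, 0.0124 and 0.154, so the letters were not taken as pairs. With the replicate block, 401 Q2-only regions were higher and 339 lower, and 2108 and 1170 Q3-only regions. Counts over all regions were not drawn up with the block or with a library left out.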

Other observations

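Some fraction-only peaks were strong and absent from both outer fractions. Of 308 Q2-only peaks with a score of at least 500, 60 were in neither Q1 nor Q4, and 51 of these were in all 6 fibroblast bulk lists from 6h to 36h. Of 985 such Q3-only peaks, 117 were in neither outer list, and 95 of these were in all 6 bulk lists. At scores of at least 1000, 19 of 73 Q2-only and 41 of 195 Q3-only peaks were in neither, with 16 and 28 in all 6 bulk lists. Among the named peaks of this strength, one beside Timp2 (chromosome 11, 118361235 to 118361382, score 1295) was in Q1, Q2 and Q4 and not in Q3.

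Chromosome X held 2.97% of Q2-only, 2.12% of Q3-only and 2.25% of shared Q2 peaks. Other motifs also differed in share between promoter classes. The E2F motif GGCGGGA, searched on both strands, was in 19.3% of Q2-only (14.6 to 25.2) and 9.29% of Q3-only promoters (6.87 to 12.4), against 22.6% of promoters in both lists and 11.3% of all. The SP and KLF motif GGGCGGG, which overlaps it in part, was in 34.0% (27.9 to 40.6) and 24.3% (20.4 to 28.6), against 50.2% and 25.6%. These are counts of letters in the windows, with no test.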
